A study of Mus musculus with 10 samples.

Results

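The machinery that stores, docks, fuses and recycles synaptic vesicles was examined through 30 mouse genes in RNA-seq counts from the midbrain at embryonic day 14.5. The genes were a named list, matched to the count table by symbol and Entrez gene ID: all 30 were found among 30935 genes, and all 30 were among the 15288 genes tested, with between 185 and 8917 counts in any library. The wild-type group (Rbfox1 +/+) and the deletion group (Rbfox1 ΔHAR.321/ΔHAR.321, a homozygous change at a human accelerated region of the locus of Rbfox1, a neuronal splicing regulator) held 5 libraries each, stated to be independent samples. Both groups share the tissue and the embryonic day, and the labels leave out strain, sex, litter and the number of founder lines. Since the labels do not say how the samples were drawn from litters, p-values measure only the spread between these libraries. Libraries are named by their replicate number: wild-type 1, 2, 4, 5 and 6 and deletion 2, 3, 4, 5 and 6, and lists of 5 values below follow that order.

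Neurotransmitter is packed into synaptic vesicles that cluster at the active zone, a protein scaffold that holds vesicles next to calcium channels. SNARE proteins of the vesicle and the plasma membrane zip together to drive fusion, calcium sensors of the synaptotagmin family trigger it, and endocytic proteins rebuild the vesicle afterwards. Most of these genes come in families of paralogues, and the embryonic midbrain is a tissue where neurons are born, extend axons and only begin to build synapses.

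Promoter sequences are shown for Syn1 and Syn2, synapsin genes whose log2 fold changes between the genotypes were nearly equal, and for Sh3gl2, the 1 other member whose promoter held a motif searched for. They are the 250 bases before the RefSeq gene start (GRCm38.p6), 5′ to 3′ on the strand of the gene. Capitals mark 2 motifs searched on both strands: TCAGCACC, the left part of the RE1 element that the repressor REST binds in many neuronal genes, and TGACGTCA, the palindromic cyclic AMP response element.
Syn1 promoter, chrX:20920919-20921168, minus strand: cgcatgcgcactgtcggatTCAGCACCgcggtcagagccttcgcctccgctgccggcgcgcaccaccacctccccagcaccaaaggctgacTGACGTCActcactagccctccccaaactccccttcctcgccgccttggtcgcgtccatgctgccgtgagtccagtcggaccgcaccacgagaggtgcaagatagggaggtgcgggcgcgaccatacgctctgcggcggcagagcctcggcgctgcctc
Syn2 promoter, chr6:115134652-115134901, plus strand: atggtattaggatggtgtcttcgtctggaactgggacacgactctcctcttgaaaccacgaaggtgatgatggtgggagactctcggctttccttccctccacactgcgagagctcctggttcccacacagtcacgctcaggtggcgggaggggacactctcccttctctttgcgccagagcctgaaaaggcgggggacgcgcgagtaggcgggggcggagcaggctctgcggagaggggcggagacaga
Sh3gl2 promoter, chr4:85205206-85205455, plus strand: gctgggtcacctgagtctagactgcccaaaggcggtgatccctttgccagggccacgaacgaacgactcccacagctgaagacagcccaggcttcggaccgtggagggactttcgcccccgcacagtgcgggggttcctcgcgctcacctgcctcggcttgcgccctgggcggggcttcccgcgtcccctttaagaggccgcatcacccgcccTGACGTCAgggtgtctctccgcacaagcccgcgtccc
The RefSeq table held 32 windows for 25 of the 30 members. The first motif stood in 1 of those windows, that of Syn1, against 1.32% of all 32851 windows of this length. The second stood in 2 of them, those of Syn1 and Sh3gl2, against 1.55% of all windows. In Syn1 the first motif begins 231 bases before the start and the second 159 bases before it, and in Sh3gl2 the second begins 37 bases before it; the Syn2 window held neither. A match is a string of letters, and binding was not measured.

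Total counts ran from 16246892 to 20255728 per library. Levels are given as CPM, in which each library's counts are scaled to a common total with edgeR's TMM factors, and a log2 fold change above 0 means more counts in the deletion group. The labelled tissue was checked against its markers: Otx2, of the forebrain and midbrain, stood at 197 ± 17.1 CPM in wild-type libraries against 176 ± 36.1 CPM with the deletion (SD, n = 5), En1 at 72.4 ± 13.7 CPM in wild-type libraries against 64.8 ± 8.56 CPM with the deletion, and, of 7 genes of the hindbrain and spinal cord, Hoxb2, Hoxb3 and Hoxa3 had no count in any library. The other 4 (Gbx2, Hoxa2, Hoxb4 and Egr2) had some counts, with Gbx2 highest at 6 to 100 counts per library, the most in deletion 2, and the list summed to 0.944 to 2.66 CPM in the wild-type and 0.693 to 6.65 CPM in the deletion libraries. The whole list of 12 midbrain markers summed to 925 to 1059 CPM in the wild-type and 857 to 1084 CPM in the deletion libraries. Of these 12, 4 had a log2 fold change above 0, among them Pax5 (0.25), and 8 had one below 0, among them Otx2 and En1. The forebrain list summed to 247 to 318 CPM and 224 to 319 CPM, led by Lhx2. The libraries carried markers of neurons and of dividing progenitors together. The summed level of 12 neuronal markers ran from 10246 to 10731 CPM in the wild-type and from 9602 to 11193 CPM in the deletion group. That of 12 progenitor markers ran from 1368 to 1763 CPM in the wild-type and from 1291 to 1789 CPM in the deletion group. Among these, Mki67, of dividing cells, had 429 counts in wild-type 2 and 1412 in wild-type 1. In such bulk samples, fewer cells of a type and less RNA per cell cannot be told apart. Single libraries stood apart in these genes and are followed below. Wild-type 2 had the highest wild-type value for 19 of the 30 members. Deletion 4 had the lowest deletion value for 13 members and the highest for 9, and deletion 6 had the highest for 15.

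The levels at this 1 age give an order of abundance, not of onset. Between genes, levels were compared as CPM per kb of merged exons. In the wild-type group the 30 members spanned an 86.4-fold range, and 24 of them lay above the median of all tested genes, 8 of them above the 90th percentile. Rab3a, the vesicle GTPase that hands vesicles to the active zone scaffold, was highest at 102 ± 12.9 CPM per kb (SD, n = 5). Syt4, a synaptotagmin of dense-core and trafficking vesicles, followed at 101 ± 6.95 CPM per kb, a difference within the spread between libraries. Vamp2, the vesicle SNARE of most central synapses, stood at 62.7 ± 4.97 CPM per kb, below Syt4 by more than the spread and within the spread of the fusion regulator Cplx2 at 59.2 ± 3.37. With the longest transcript as the length, Vamp2 stood at 108 ± 8.59 CPM per kb, above Syt4 (101 ± 6.95) though within its spread, and above Cplx2 (59.2 ± 3.37).

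A second tier ran from Syt11 (51.2 ± 3.24 CPM per kb), a synaptotagmin that does not bind calcium, through Sv2a (46.9 ± 4.64), the vesicle glycoprotein that binds the drug levetiracetam, and Dnm1 (43.8 ± 5.76), the GTPase that pinches off endocytic vesicles. The vesicle membrane protein Syp (34.2 ± 2.86), Syn1 (33.5 ± 5.39) and the plasma membrane SNARE Stx1a (28.8 ± 3.42) came next, each within the spread of its neighbour. The fast calcium sensor Syt1 (23.5 ± 1.66), the SNARE Snap25 (20.5 ± 0.652) and the SNARE-recycling ATPase Nsf (19.96 ± 1.63), which adult synapses need together with Vamp2, thus stood below Vamp2 per kb. The 8 active zone and priming genes all lay between ranks 17 and 26: Erc2 was their highest at 16.7 ± 1.54 CPM per kb and Unc13b their lowest at 4.8 ± 0.37, within the spread of Pclo at 4.94 ± 0.469.

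The lowest 3 members were Syn3 (2.09 ± 0.35 CPM per kb), Sv2b (1.79 ± 0.105) and Vamp1 (1.18 ± 0.15), the vesicle SNARE of spinal and brainstem circuits. Syn3 and Sv2b did not differ beyond the spread, and Vamp1 stood below both. With the longest transcript, Sv2c (3.95 CPM per kb) lay below Syn3 (5.38 CPM per kb), so that the lowest 3 were Sv2c, Sv2b and Vamp1. Of the 29 neighbouring pairs in the order, 21 had ranges of mean ± 1 SD that overlapped and 8 did not. The order was nearly the same in the deletion group, where 23 members kept their exact rank. Dividing by the longest transcript in place of merged exons moved no member by more than 5 places (Bsn and Nsf moved by 5).

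**Figure D1:**
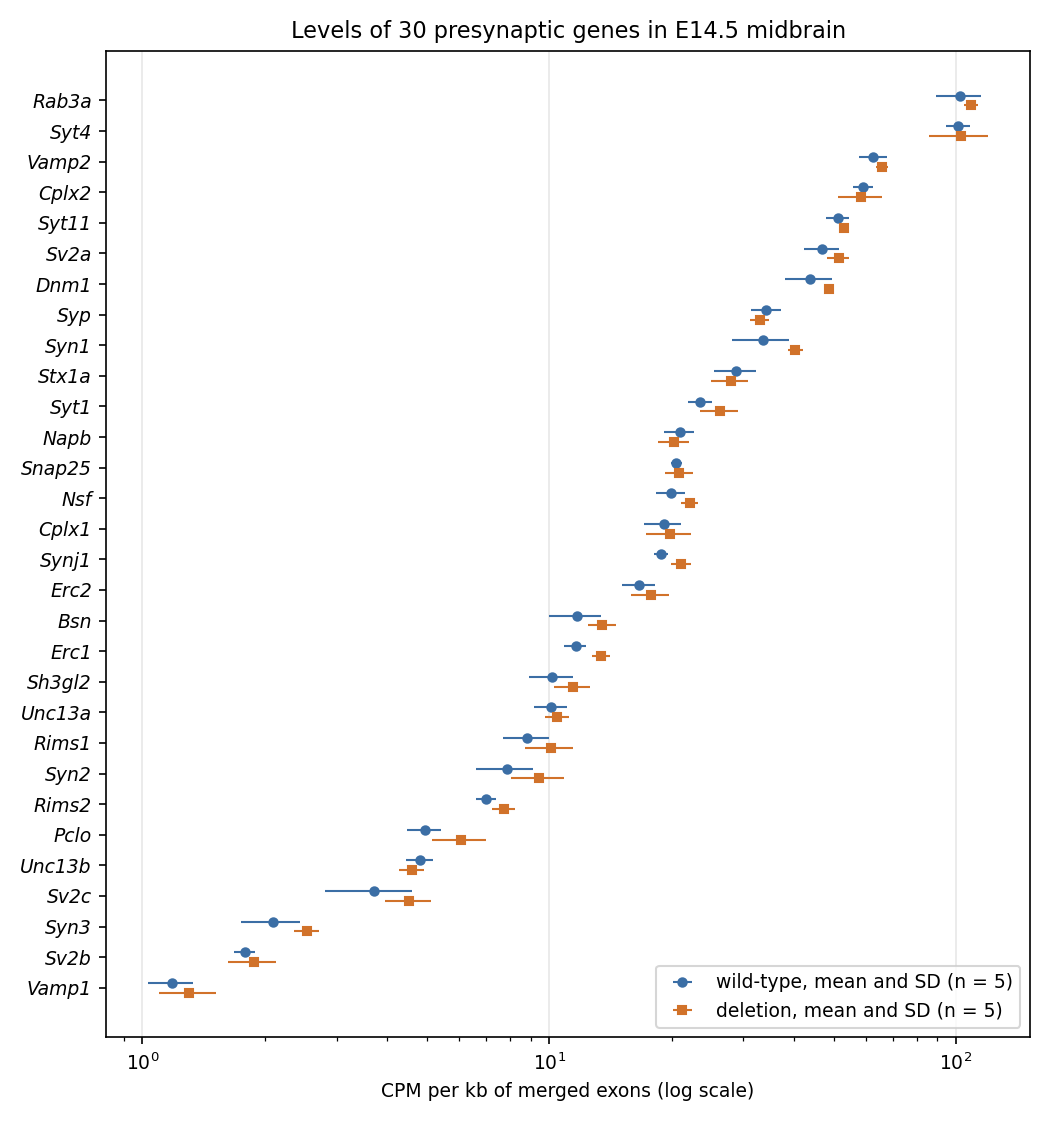
Level of each of the 30 genes as CPM per kb of merged exons on a log axis, with the mean (circle, wild-type; square, deletion) and SD of 5 libraries per group. Rab3a and Syt4 stand highest and Vamp1 lowest, an 86.4-fold range in the wild-type group, and the order is nearly the same in both groups.

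Within families, 1 paralogue usually carried most of the level. Vamp2 held 98.1% ± 0.23 of the Vamp1 and Vamp2 level per kb in the wild-type group (SD, n = 5), and Sv2a held 89.5% ± 1.21 of the Sv2 level against 7.03% ± 1.24 for Sv2c and 3.45% ± 0.453 for Sv2b. Syn1 held 77.02% ± 2.06 of the synapsin level, Syn2 18.2% ± 2.37 and Syn3 4.82% ± 0.361. Cplx2 held 75.6% ± 2.72 against Cplx1, Bsn 70.2% ± 1.29 against Pclo, and Unc13a, the main priming factor of glutamatergic synapses, 67.8% ± 2.19 against Unc13b. Among the 3 synaptotagmins, Syt4 held 57.5% ± 1.87, Syt11 29.1% ± 1.47 and Syt1 13.4% ± 0.912, so the paralogue that triggers fast release was the smallest of the 3. Erc2 held 58.9% ± 1.46 against Erc1.

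These shares rest on gene lengths. With the longest transcript in place of merged exons, the Syn1 share was 63.1% and the Syt1 share 20.9%. The Rims1 share, 55.7% ± 1.91 with merged exons, was 39.9% with the longest transcript, so which of the 2 Rims genes was higher is not settled here. For the other 8 families the paralogue with the largest share was the same with both lengths.

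For each of the 9 shares the values of the genotypes overlapped, and the smallest unadjusted p was 0.151. The tests were exact permutation tests over all assignments of libraries (two-sided, smallest possible p = 0.00794, adjusted over the 9 shares). With that smallest p, a single shifted share could not have passed after the adjustment, however large its shift. The adjusted values therefore cannot decide whether a single share shifted. The Syt1 share was 13.2, 13.9, 11.99, 13.3 and 14.5% in the wild-type libraries and 15.9, 15.4, 14.6, 12.8 and 13.7% in the deletion libraries, a mean of 13.4% ± 0.912 against 14.5% ± 1.26 (two-sided exact permutation p = 0.151, adjusted over shares p = 0.476). The groups overlapped, with 4 of the 5 deletion values exceeding the mean of the other group. The Unc13a share was 64.97, 71.1, 67.6, 67.7 and 67.4% in the wild-type libraries and 70.7, 68.4, 69.9, 69.7 and 68.7% in the deletion libraries (two-sided exact permutation p = 0.159, adjusted over shares p = 0.476). Every deletion value exceeded the mean of the other group, but wild-type 2 had the highest value of all. The Erc1 share was 41.2, 39.9, 39.4, 42.3 and 42.8% in the wild-type libraries and 42.4, 42.1, 46.8, 42.6 and 41.3% in the deletion libraries (two-sided exact permutation p = 0.159, adjusted over shares p = 0.476), again with every deletion value above that mean and with overlap. The other 6 shares differed by -1.18 to 1.02 percentage points between deletion and wild-type (exact permutation tests, two-sided, p from 0.452 to 1, adjusted p from 0.833 to 1).

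**Figure D2:**
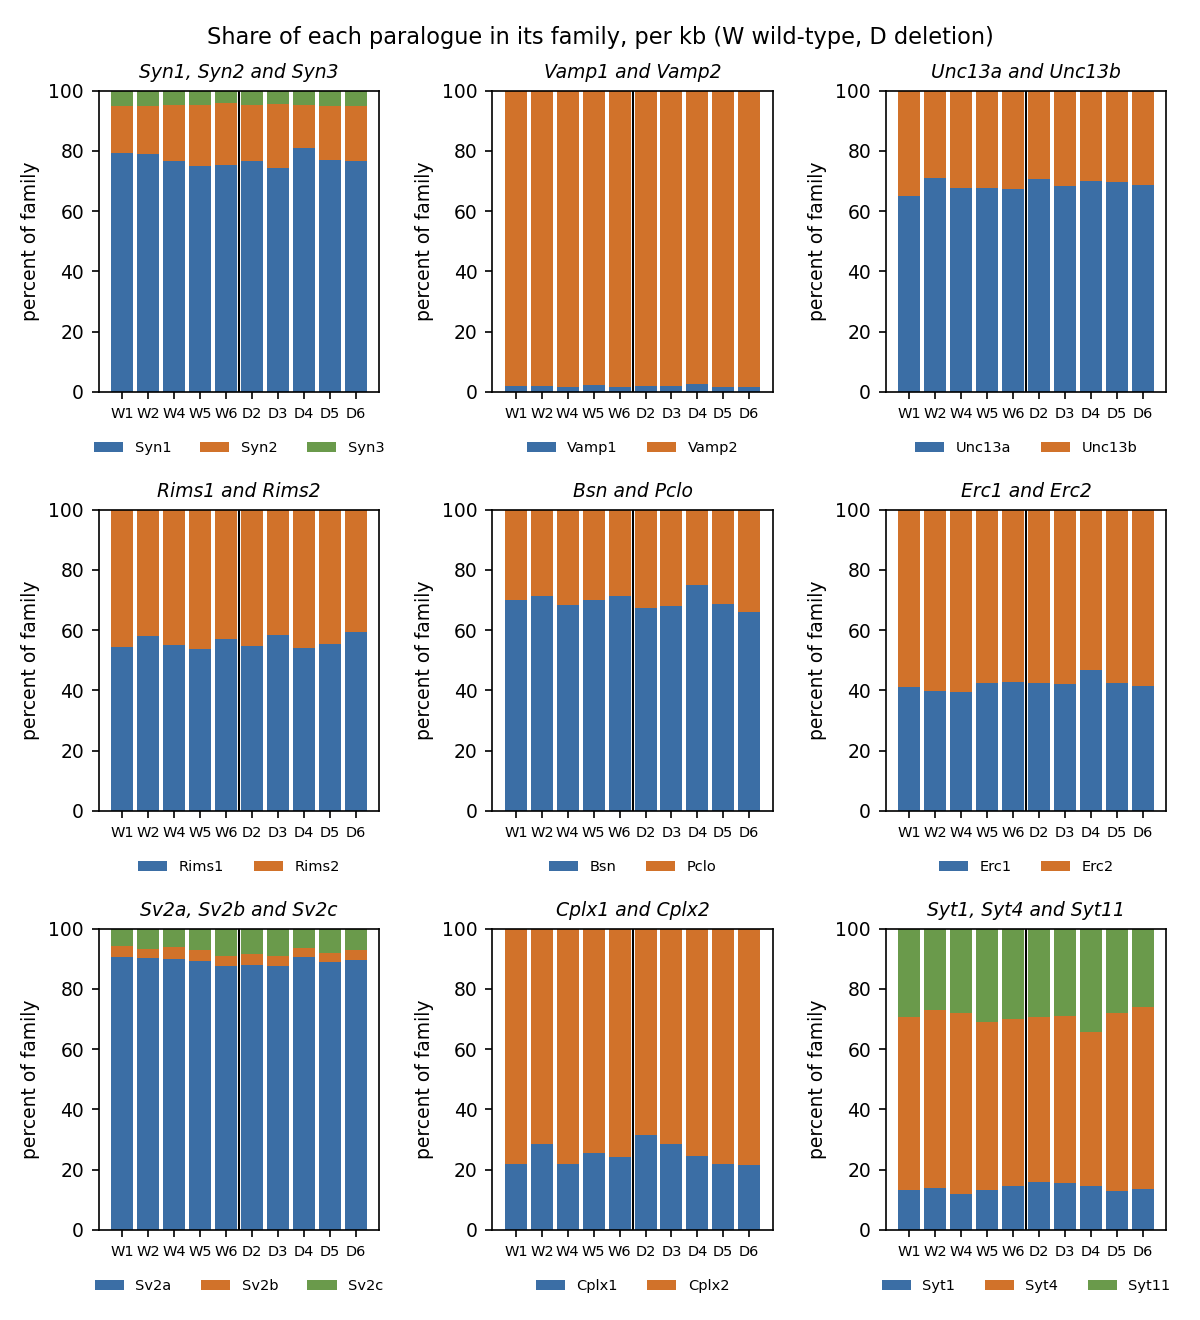
Percent of the summed level per kb held by each paralogue in 9 families, 1 stacked bar per library (W, wild-type; D, deletion, with the replicate number). Vamp2, Sv2a and Syn1 dominate their families in every library, and the bars of the genotypes differ little.

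Between the genotypes, none of the 30 members reached an adjusted p of 0.05 over all genes in edgeR's quasi-likelihood fit, where 0.0589% of tested genes did. DESeq2 called 1, Erc1 (DESeq2 adjusted p = 0.0432), where 2.36% of the genes with an adjusted p in DESeq2 were called. Without an adjustment, 11 of the 30 had a p under 0.05 as higher in the deletion group, where 5.62% of all tested genes did, and 0 as lower, where 4.92% did. The log2 fold change was above 0 for 25 of the 30 members, against 49.3% of all tested genes, and its median was 0.14, against -0.0024 over all tested genes. For 1 member, Erc1, every deletion library lay above every wild-type library, which 1.22% of all tested genes also showed. For 12 members each deletion library exceeded the wild-type mean, as did 10.2% of all tested genes. With length and GC trends across all genes removed, the median over the members was 0.09, and with wild-type 2 or deletion 4 left out, 1 or 3 members passed, as described after the roles.

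**Figure D3:**
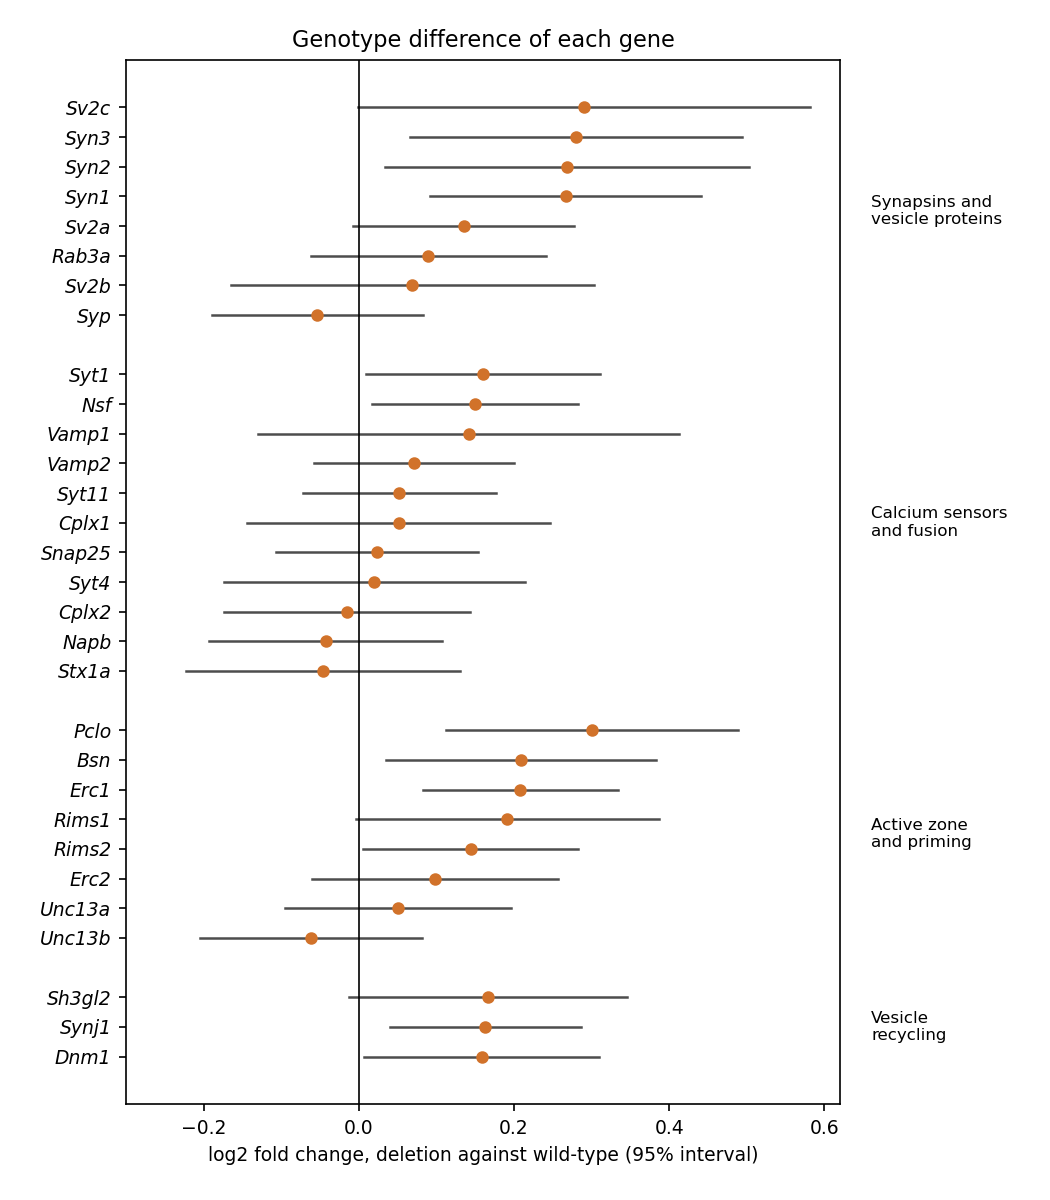
Log2 fold change of each gene, deletion against wild-type (point), with its 95% interval (line), grouped by role. Of the 30 points, 25 lie right of 0, and the intervals of 11 genes exclude 0 before adjustment for multiple tests.

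Of the 8 vesicle proteins, 7 had a log2 fold change above 0 and 3, the synapsins, an unadjusted p under 0.05. Synapsins coat vesicles and tether them in reserve clusters. Syn1 stood at 103, 139.5, 104, 92.6 and 113 CPM in wild-type libraries, and 135, 127, 138, 126 and 138 CPM with the deletion (log2 fold change 0.27, SE 0.08, edgeR adjusted p = 0.207). The 5 deletion libraries were close together, and wild-type 2 was the only wild-type library as high as they were. Syn2 stood at 42.7, 60.6, 53.2, 53.6 and 66.05 CPM in wild-type libraries, and 70.5, 77.6, 52.1, 62.1 and 70.5 CPM with the deletion (log2 fold change 0.27, SE 0.11, edgeR adjusted p = 0.39), with deletion 4 below 4 of the 5 wild-type libraries. Syn3, the synapsin of early neuronal development, stood at 25.4, 33.02, 24.3, 21.8 and 23.96 CPM in wild-type libraries, and 30.5, 28.8, 30.2, 31.6 and 34.6 CPM with the deletion (log2 fold change 0.28, SE 0.10, edgeR adjusted p = 0.293). Wild-type 2 was again inside the deletion range, while the other 4 wild-type libraries lay below it. Up to 14.1% of the merged Syn3 exons overlap those of Timp3 on the opposite strand, and the strandedness of the counts is not given in the sources used here.

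The Sv2 proteins regulate vesicle priming, and Sv2c is enriched in the basal ganglia and dopaminergic midbrain of adults. Sv2a stood at 212, 249.9, 197, 201 and 226 CPM in wild-type libraries, and 236, 229, 230.3, 233 and 264 CPM with the deletion (log2 fold change 0.14, SE 0.07, edgeR adjusted p = 0.513). Sv2c stood at 28.9, 40.3, 28.3, 33.1 and 49.01 CPM in wild-type libraries, and 47.2, 49.6, 34.8, 43.8 and 44.4 CPM with the deletion (log2 fold change 0.29, SE 0.14, edgeR adjusted p = 0.478). The wild-type libraries ranged most widely for Sv2c, with a coefficient of variation of 24.3%, the highest of any member, and the groups overlapped for both genes. Sv2b, low throughout, stood at 14.3, 13.96, 15.97, 14.9 and 15.8 CPM in wild-type libraries, and 18.2, 16.2, 12.7, 14.7 and 16.9 CPM with the deletion (log2 fold change 0.07, SE 0.11, edgeR adjusted p = 0.887). Rab3a stood at 222, 275, 226, 196 and 221 CPM in wild-type libraries, and 238, 236, 260.3, 241 and 237 CPM with the deletion (log2 fold change 0.09, SE 0.07, edgeR adjusted p = 0.726). Its deletion values all exceeded the wild-type mean but stayed inside the range of that group. Syp was the 1 member of this role with a fold change below 0, at 178 ± 14.9 CPM in wild-type libraries against 172 ± 9.41 CPM with the deletion (log2 fold change -0.05, SE 0.07, edgeR adjusted p = 0.841), and up to 16.8% of its merged exons overlap the model Gm14703 on the opposite strand.

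The 11 calcium sensors and fusion genes centred closer to 0, with a median log2 fold change of 0.05, 8 of 11 above 0 and 2, Syt1 and Nsf, with an unadjusted p under 0.05. Syt1 stood at 186, 198, 189, 189 and 219.6 CPM in wild-type libraries, and 248, 229, 185, 207 and 228 CPM with the deletion (log2 fold change 0.16, SE 0.07, edgeR adjusted p = 0.441), and deletion 4 had the lowest value of all 10 libraries. Syt4 stood at 377, 393, 439, 369 and 395 CPM in wild-type libraries, and 399, 385, 300.1, 449 and 469 CPM with the deletion (log2 fold change 0.02, SE 0.09, edgeR adjusted p = 0.971). Its deletion libraries spread more widely than the wild-type ones, with deletion 4 the lowest and deletion 6 the highest of all, and up to 14.5% of its merged exons overlap the model Gm26658 on the opposite strand. Syt11 stood at 256, 242, 277, 274 and 283 CPM in wild-type libraries, and 286, 269, 271, 285 and 272 CPM with the deletion (log2 fold change 0.05, SE 0.06, edgeR adjusted p = 0.83), with overlap between the groups.

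None of the 4 SNARE genes had an unadjusted p under 0.05. Vamp2 stood at 231, 268, 245, 219 and 231 CPM in wild-type libraries, and 253, 249, 241, 247 and 263 CPM with the deletion (log2 fold change 0.07, SE 0.06, edgeR adjusted p = 0.75), with the deletion values inside the wild-type range. Vamp1 stood at 12.02, 13.7, 11.8, 13.01 and 9.7 CPM in wild-type libraries, and 12.7, 12.9, 16.9, 11.5 and 12.3 CPM with the deletion (log2 fold change 0.14, SE 0.13, edgeR adjusted p = 0.769), and deletion 4 alone lay above the wild-type range. Snap25 had a log2 fold change of 0.02 (95% interval -0.11 to 0.15) at 139.5 ± 4.43 CPM in wild-type libraries against 142 ± 11.1 CPM with the deletion. Stx1a had one of -0.05 (-0.22 to 0.13) at 76.9 ± 9.12 CPM in wild-type libraries against 74.4 ± 7.9 CPM with the deletion. Differences inside those intervals, which carry no adjustment over genes, are not excluded by these data.

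Complexins hold assembled SNAREs ready for calcium. Cplx1 stood at 37.7, 48.3, 39.3, 43.9 and 39.8 CPM in wild-type libraries, and 47.1, 48.9, 45.8, 36.8 and 38.05 CPM with the deletion (log2 fold change 0.05, SE 0.09, edgeR adjusted p = 0.904). Cplx2 stood at 303, 275, 315, 286 and 280.0 CPM in wild-type libraries, and 232, 278, 319.6, 298 and 314 CPM with the deletion (log2 fold change -0.02, SE 0.08, edgeR adjusted p = 0.972). Deletion 3 had the highest Cplx1 and deletion 2 the lowest Cplx2 value of all libraries, and the groups overlapped for both. Nsf and the adaptor Napb pull spent SNARE complexes apart. Nsf stood at 167 ± 13.6 CPM in wild-type libraries against 185 ± 8.84 CPM with the deletion (log2 fold change 0.15, SE 0.06, edgeR adjusted p = 0.4), with every deletion value above the mean of the other group. Napb stood at 148 ± 12.8 CPM in wild-type libraries against 143 ± 12.7 CPM with the deletion (log2 fold change -0.04, SE 0.07, edgeR adjusted p = 0.894).

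Of the 8 active zone and priming genes, 7 had a log2 fold change above 0, with a median of 0.17, and 4 (Pclo, Erc1, Bsn and Rims2) an unadjusted p under 0.05. Erc1 (ELKS), a scaffold also found outside neurons, had the smallest p of all members. It stood at 186, 206, 179.7, 177 and 196 CPM in wild-type libraries, and 219, 206, 219, 212 and 235 CPM with the deletion (log2 fold change 0.21, SE 0.06, edgeR adjusted p = 0.166). The lowest deletion value, in deletion 3, was just above the highest wild-type value, in wild-type 2. Up to 11.8% of its merged exons overlap the gene model Gm44317 on the opposite strand. Its brain-specific relative Erc2 (CAST) stood at 159, 185, 165, 144 and 157 CPM in wild-type libraries, and 178, 169, 148, 171 and 200.1 CPM with the deletion (log2 fold change 0.10, SE 0.08, edgeR adjusted p = 0.71), with overlap. Pclo (piccolo), a giant scaffold, stood at 113, 128, 99.2, 106 and 109 CPM in wild-type libraries, and 139, 135, 111, 129.8 and 168 CPM with the deletion (log2 fold change 0.30, SE 0.09, edgeR adjusted p = 0.185). Deletion 6 was the highest and deletion 4 lay inside the wild-type range. Its relative Bsn (bassoon) stood at 186, 225, 151, 177 and 193 CPM in wild-type libraries, and 203, 203, 237, 203 and 232 CPM with the deletion (log2 fold change 0.21, SE 0.08, edgeR adjusted p = 0.358), where deletion 4 was instead the highest library.

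RIM proteins link Rab3 on the vesicle to calcium channels. Rims1 stood at 58.9, 78.2, 61.4, 58.1 and 68.7 CPM in wild-type libraries, and 69.5, 75.6, 63.5, 72.4 and 90.3 CPM with the deletion (log2 fold change 0.19, SE 0.09, edgeR adjusted p = 0.489). Rims2 stood at 69.7, 79.6, 70.8, 70.96 and 72.6 CPM in wild-type libraries, and 80.98, 75.6, 75.7, 81.7 and 87.7 CPM with the deletion (log2 fold change 0.14, SE 0.07, edgeR adjusted p = 0.449). Wild-type 2 was the highest wild-type library for both genes and deletion 6 the highest of all. The Munc13 proteins, which make docked vesicles ready to fuse, lay closer to 0 in fold change. Unc13a stood at 123, 145, 113, 127 and 129.7 CPM in wild-type libraries, and 127, 129.7, 148, 128 and 128 CPM with the deletion (log2 fold change 0.05, SE 0.07, edgeR adjusted p = 0.861), and 4 of its 5 deletion values lay within 127 to 129.7 CPM. Unc13b stood at 120.0, 107, 97.2, 109 and 113 CPM in wild-type libraries, and 95.4, 108, 115, 100.2 and 105 CPM with the deletion (log2 fold change -0.06, SE 0.07, edgeR adjusted p = 0.823), with 4 of 5 deletion libraries below the wild-type mean.

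The 3 recycling genes had log2 fold changes of nearly one size, with a median of 0.16. Synj1 (synaptojanin), the phosphatase that strips the clathrin coat, stood at 149, 163, 148, 151 and 151 CPM in wild-type libraries, and 177, 177, 157, 165 and 178 CPM with the deletion (log2 fold change 0.16, SE 0.06, edgeR adjusted p = 0.283). Of its deletion libraries, deletion 4 alone lay inside the wild-type range. Dnm1 stood at 229.7 ± 30.3 CPM in wild-type libraries against 256 ± 6.25 CPM with the deletion (log2 fold change 0.16, SE 0.07, edgeR adjusted p = 0.448), with wild-type 2 above every deletion library. Sh3gl2 (endophilin A1), which bends the endocytic neck, stood at 66.7 ± 8.24 CPM in wild-type libraries against 74.8 ± 7.68 CPM with the deletion (log2 fold change 0.17, SE 0.09, edgeR adjusted p = 0.521).

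**Figure D4:**
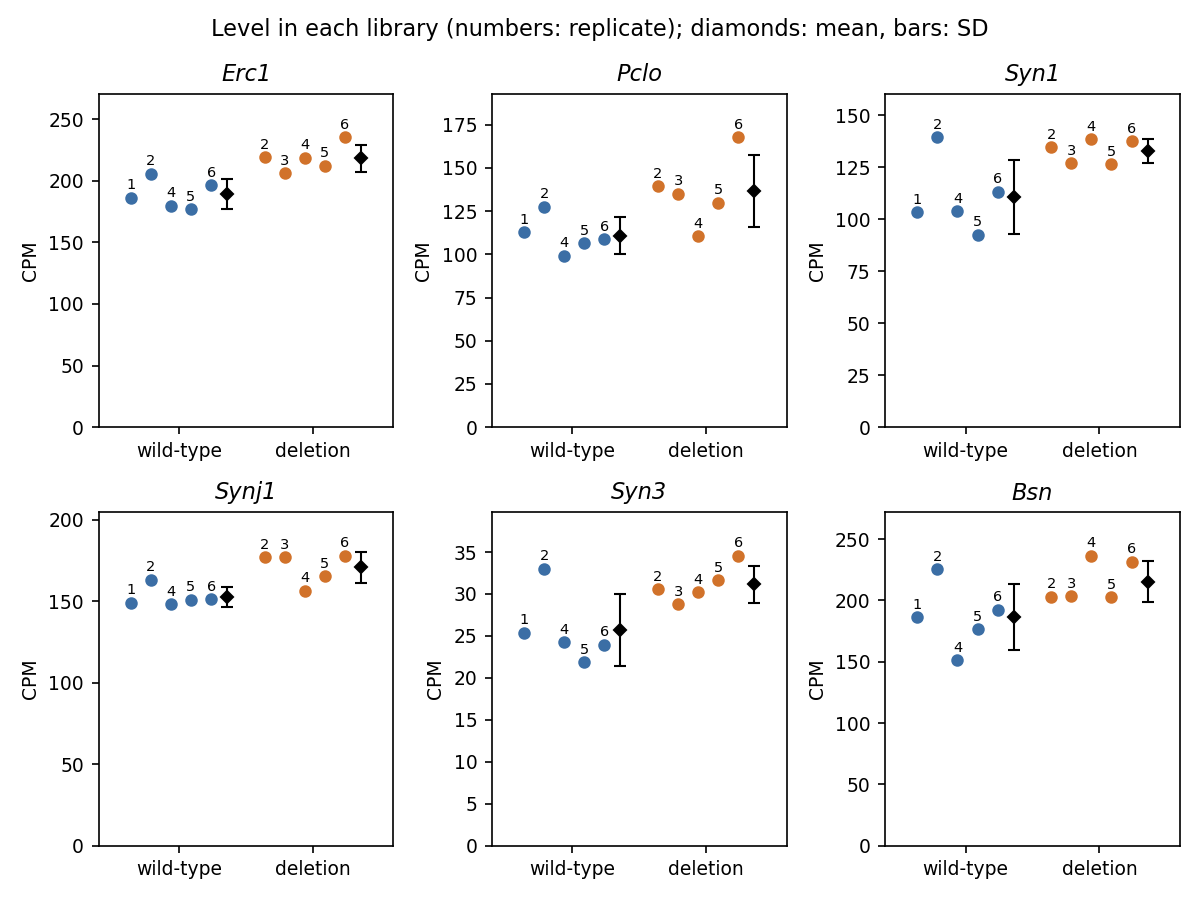
CPM in each library (points, labelled with the replicate number) for the 6 members with the smallest p, with the group mean (diamond) and SD (bar) beside them; each axis starts at 0. The groups separate fully for Erc1 alone, and wild-type 2 is the highest wild-type library in all 6 plots.

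In most libraries most members lay on the same side of their 10-library mean, a pattern that also holds the genotype difference. In deletion 4 and wild-type 6 the members were more evenly divided. Wild-type 2 lay above the 10-library mean in log2 CPM for 24 of the 30 members, against 2 in wild-type 1, 7 in wild-type 4, 4 in wild-type 5 and 12 in wild-type 6. In the deletion group the counts were 24, 25, 14, 22 and 25 of 30 for deletion 2, 3, 4, 5 and 6. Averaged over the members, the deviation from the gene mean on the log2 scale was -0.13, 0.09, -0.10, -0.13 and -0.03 in the wild-type and 0.06, 0.07, 0.00, 0.02 and 0.14 in the deletion libraries, so wild-type 2 stood among the deletion libraries and deletion 4 between the groups. The neuronal markers deviated by -0.09, 0.03, 0.00, -0.01 and 0.02 and by 0.08, 0.06, -0.19, 0.01 and 0.08 in the same libraries, and the progenitor markers by 0.16, -0.26, 0.04, 0.15 and 0.10 and by 0.13, -0.04, 0.05, -0.02 and -0.30. Progenitor markers were lowest in deletion 6 and wild-type 2, the libraries with the highest member levels of their groups. Deletion 2 did not follow this, with the members at 0.06 and the progenitor markers at 0.13, both above their means. The part of cell composition in the genotype difference was not tested.

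**Figure D5:**
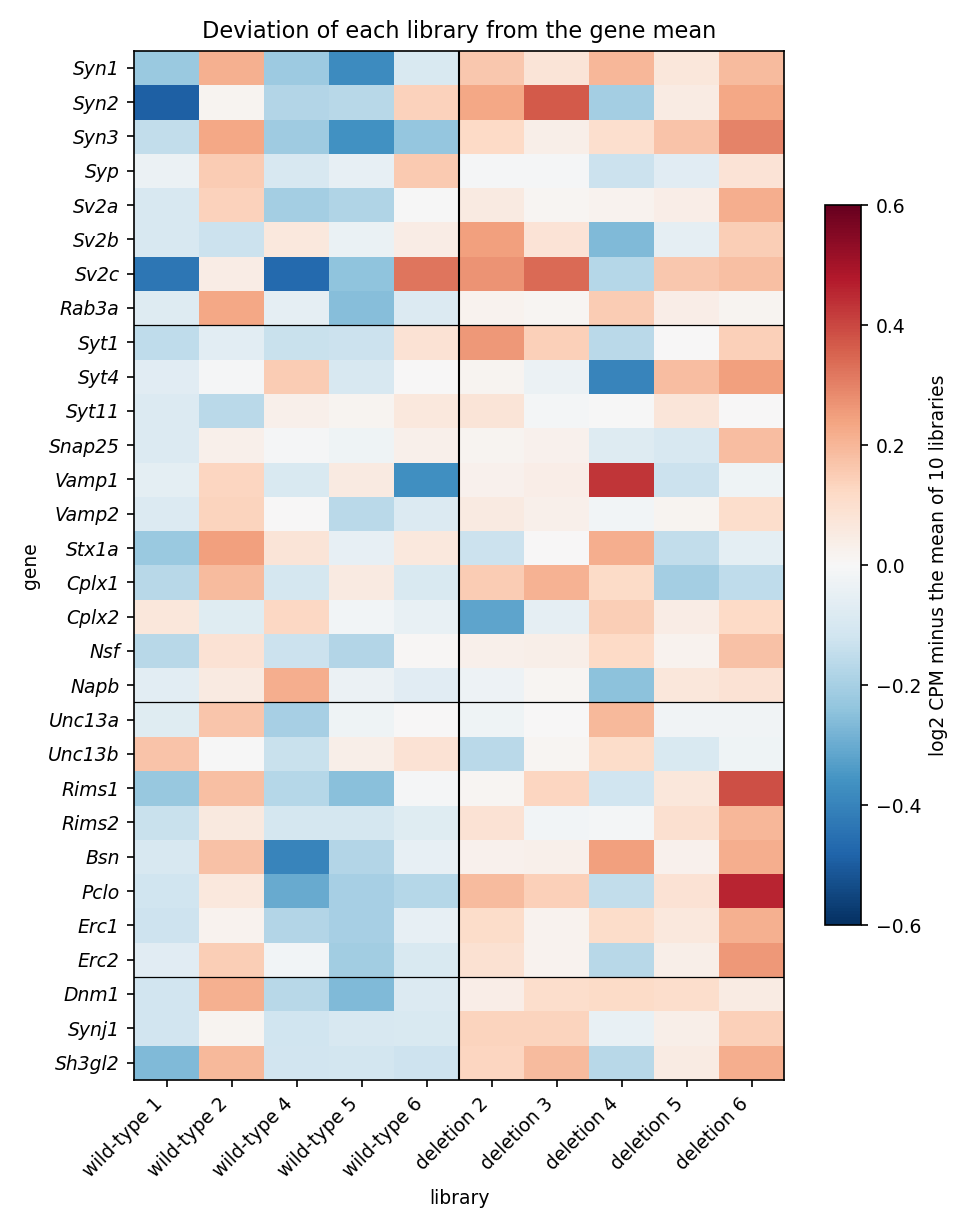
Log2 CPM of each gene (rows, grouped by role) in each library (columns), minus the gene's mean over 10 libraries; red is above and blue below that mean. Wild-type 2 is mostly red, with 24 of 30 genes above their mean, and deletion 4 mixes red and blue, with 14 of 30.

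Of the marker lists for other cells, the median log2 fold change was 0.02 for the 12 neuronal and -0.10 for the 12 progenitor markers. In either list 0 markers passed edgeR over all genes. The unadjusted p was under 0.05 for the neuronal Nefm (log2 fold change 0.22) and for 2 progenitor markers in opposite directions, Notch1 (0.24) and Sox2 (-0.23). The 6 tested markers of mature glia were higher in 6 of 6 cases, at 71.2 to 86.96 summed CPM in the wild-type and 75.7 to 97.6 in the deletion libraries, and none passed (unadjusted p under 0.05 for Mbp). A list of 7 pituitary and endocrine genes, led by the granins, summed to 239 to 304 CPM in the wild-type and 232 to 269 CPM in the deletion libraries. Of its 5 tested genes, 1 had a log2 fold change above 0 and 4 one below 0. Among the lower were the granins Chga (-0.05), Chgb (-0.14) and Scg2 (-0.04). Of the pituitary hormone genes, Prl had no count in any library, Cga 1 count in deletion 5, and Pomc 2 to 34 counts in each library. Markers of blood summed to 1602 to 2428 CPM in wild-type and 2112 to 2845 CPM in deletion libraries, with 5 of 5 tested markers above 0 in fold change and an unadjusted p under 0.05 for Alas2 (log2 fold change 0.47, edgeR adjusted p = 0.228). With the length trend removed, 4 of the 5 had an unadjusted p under 0.05 as higher, against 4.17% of all genes in that fit. These 5 genes are short, with a median longest transcript of 699 bases against 3492 bases over the tested genes with a length. No marker of these lists or of those for microglia, endothelium, meninges and muscle passed edgeR over all genes, and the part of these cells in the members' values was not tested.

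Transcript length moved with the genotype in these libraries. The slope of log2 CPM, taken relative to each gene's mean, on log2 transcript length was -0.042, -0.010, -0.061, -0.047 and -0.014 per doubling in the wild-type and 0.041, 0.034, -0.055, 0.049 and 0.104 in the deletion libraries, below 0 in 5 of 5 wild-type and above 0 in 4 of 5 deletion libraries. It was lowest in wild-type 4 and deletion 4 and highest in deletion 6. The members are longer than most genes, with a median longest transcript of 4810 bases against 3492 bases over the tested genes with a length. Across the 30 genes, which share libraries and are not independent, log2 fold change and log2 length had a Pearson r of 0.30 and a Spearman rho of 0.27. The 15 shorter members had a median fold change (log2) of 0.14, as did the 15 longer ones. With each library's length trend removed, the median over the members was 0.11, 24 of 30 were above 0 against 49.6% of all genes in that fit, and 7 had an unadjusted p under 0.05 as higher, against 4.17% of all genes. With length and GC content removed, the median was 0.09, 23 were above 0 against 49.6% of all genes, and 8 had an unadjusted p under 0.05 as higher, against 4.86%. None passed in edgeR over all genes in either fit.

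The genes differed in how far the correction moved them. Syn1 (longest transcript 3261 bases) had a log2 fold change of 0.27, SE 0.08 with length removed and 0.25, SE 0.07 with length and GC content removed, against 0.27 before. Syn3 had 0.24, SE 0.10 and 0.25, SE 0.10. The long active zone genes came closer to 0: Pclo (20084 bases) to 0.20, SE 0.06 and 0.19, SE 0.05, Bsn (15938 bases) to 0.13, SE 0.08 and 0.08, SE 0.04, and Erc1 (8760 bases) to 0.13, SE 0.05 and 0.10, SE 0.04. Unc13a turned from 0.05 to -0.03, SE 0.08 and -0.08, SE 0.05. Rab3a (1556 bases) went from 0.09 to 0.17, SE 0.07 and 0.16, SE 0.07.

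Single libraries decided whether a member passed. Without wild-type 2, Syn1 passed (0.36, SE 0.07, edgeR adjusted p = 0.0253), 15 members had an unadjusted p under 0.05 as higher, against 7.03% of all genes in that fit, and the median over the members was 0.17. Without deletion 4, Pclo (0.37, SE 0.08, edgeR adjusted p = 0.0151), Erc1 (0.21, SE 0.06, edgeR adjusted p = 0.0484) and Synj1 (0.19, SE 0.05, edgeR adjusted p = 0.0475) passed, 15 members had an unadjusted p under 0.05 as higher, against 7.85% of all genes, and the median was 0.14. In those fits 88 of 15429 (0.57%) and 357 of 15433 genes (2.31%) passed over the whole table, against 9 with all libraries. Without any other library, no member passed, 5 to 10 had an unadjusted p under 0.05 as higher, against 3.99 to 4.98% of all genes, and the median lay between 0.10 and 0.14.

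Other genes of the presynaptic terminal were taken from a list of 98, of which 96 had a row and 93 were tested (Vamp7 and Sypl1 were not matched, and Cplx4, Slc17a7 and Slc18a1 did not pass the filter on low counts). Of the 93, 65 had a log2 fold change above 0, with a median of 0.06, against 49.3% of all tested genes. None passed edgeR over all genes, where 0.0589% of all tested genes did. Without adjustment, 11 had a p under 0.05 as higher, against 5.62% of all tested genes, and 1 as lower, against 4.92%. DESeq2 called 1 of 82, Ap2a2, against 2.36% of all genes with an adjusted p in DESeq2. Ap2a2, a subunit of the clathrin adaptor AP-2, stood at 197, 204, 194, 189 and 191 CPM in wild-type libraries, and 223, 210.4, 234, 218 and 222 CPM with the deletion (log2 fold change 0.18, SE 0.06, edgeR adjusted p = 0.18). Every deletion library lay above every wild-type library for this gene, which 1.22% of all tested genes also showed. Snap91 (AP180), a clathrin assembly protein, reached a log2 fold change of 0.20 (SE 0.07) and the dynamin gene Dnm3 one of 0.24 (SE 0.08). The 1 lower gene, named after its value was seen, was Sncg, a synuclein, at 19.1 ± 0.74 CPM in wild-type libraries against 15.7 ± 2.12 CPM with the deletion (log2 fold change -0.29, SE 0.11, edgeR adjusted p = 0.301).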

How the data were processed

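RNA-seq was made from midbrain total RNA of 5 wild-type and 5 deletion samples. The authors deposited 1 table of raw counts per Entrez gene ID. HISAT2, featureCounts and the mm39 build are named, per the submitters' processing notes. Software versions, gene models, strandedness and multi-mapping rules were not given in the sources used here. Reads from genes on the opposite strand (12 members have such an exon overlap, 4 over more than 10% of their exons) therefore cannot be told apart from the gene itself. All 10 columns matched sample titles, and 0 had no sample. Depth ran from 16246892 to 20255728 counts. Same-group libraries differed beyond sampling noise (chi-square over degrees of freedom at least 6.01), so none were duplicates.

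Symbols came from the RefSeq table for GRCm38.p6 (30648 of 30935 IDs matched). Merged exon length, longest transcript and GC content came from GENCODE M21 on GRCm38, another build, so they served as lengths only; 14119 tested genes had one (92.4%). Counts were tested with edgeR 4.0.16 (R 4.3.3): filterByExpr, TMM, robust quasi-likelihood fitting on genotype alone, two-sided, Benjamini-Hochberg adjustment over all genes, threshold 0.05. CPM values are TMM-scaled, with a prior count of 2 on the log2 scale. SE is the log2 fold change divided by the square root of F. Length and GC trends were splines with 4 degrees of freedom, fitted to genes above a mean log2 CPM of 3 and used as offsets. Shares are percent of the family's summed CPM per kb. The fit was tested on simulated data. Alternatives were RLE scaling, no filter, DESeq2 1.42.0, a replicate block, the trends and leaving out each library. All 30 members are named. Values in every library are given for the 6 with the smallest p, the 3 highest and 3 lowest per kb and the paralogue families, and the rule names 4 other presynaptic genes by smallest p, of which 1 is not reported here. The members and lists were chosen with earlier results of these data known.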

Additional observations from a re-analysis of the deposited data

Results flagged for a closer look

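In 7 of 78 groups of 5 libraries (30 genes and 9 paralogue shares, 2 groups each), 1 library stood far from the others by Dixon's ratio of gap to range (above 0.71); chance flags about 1 in 20 groups. Vamp1 stood at 16.9 CPM in deletion 4, with the nearest library of its group at 12.9 CPM and the farthest at 11.5 CPM. Unc13a stood at 148 CPM in deletion 4, with the nearest library of its group at 129.7 CPM and the farthest at 127 CPM. Sv2a stood at 264 CPM in deletion 6, with the nearest library of its group at 236 CPM and the farthest at 229 CPM. Rab3a stood at 260.3 CPM in deletion 4, with the nearest library of its group at 241 CPM and the farthest at 236 CPM. Synj1 stood at 163 CPM in wild-type 2, with the nearest library of its group at 151 CPM and the farthest at 148 CPM. The Vamp1 share of its family was 2.56% in deletion 4, with the nearest library of its group at 1.9% and the farthest at 1.71%. The Erc1 share of its family was 46.8% in deletion 4, with the nearest library of its group at 42.6% and the farthest at 41.3%. Deletion 4 was the outlying library in 5 of the 7 cases, and the values of 1 library and the shares made from them are not independent.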

How the results depend on the processing

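Over 480 member values under alternatives, 457 kept their direction and stayed uncalled, 5 passed and 18 changed sign, all of them in 8 members with small fold changes. The 5 that passed are Syn1 without wild-type 2, Pclo, Erc1 and Synj1 without deletion 4, and Erc1 in DESeq2 (0.21, SE 0.06, DESeq2 adjusted p = 0.0432). Members called were 0 of 30 in edgeR, 1 in DESeq2 and 0 to 3 when a library was left out. Genes called over the whole table, 9 with all libraries, numbered 69 with no filter, 235 in DESeq2, 18 with the length and GC trend removed, 0 with the length trend removed (1173 at an unadjusted p under 0.05), and 0 to 357 when a library was left out. The replicate numbers were shared by 4 pairs of libraries, whose deviations from the group means correlated at -0.08, -0.13, -0.06 and 0.12. No library correlated best with its own number, so the numbers showed no sign of pairing. With so few pairs and no litter labels, pairing is not excluded. With the replicate block, 0 genes were called (924 at an unadjusted p under 0.05 in either direction). In that fit 5 members had an unadjusted p under 0.05 as higher, against 3.31% of all genes. Under that block the sign changed for Snap25 (-0.00021), Cplx1 (-0.034) and Cplx2 (0.0013), and for the differences in the Rims1 (-0.040 percentage points), Sv2a (0.041) and Cplx1 (-0.33) shares. With the length trend removed it changed for Snap25 (-0.016), Stx1a (0.0026) and Unc13a (-0.029), and with length and GC content removed for Syt11 (-0.013) and Unc13a (-0.080). With a library left out, the log2 fold change ran from -0.043 to 0.11 for Syt4, -0.022 to 0.046 for Snap25, -0.11 to 0.0059 for Stx1a, -0.0015 to 0.10 for Cplx1, -0.054 to 0.049 for Cplx2 and -0.069 to 0.011 for Napb, and the share differences ran from -0.95 to 0.74 for Syn1, -0.063 to 0.17 for Vamp1 and -0.45 to 2.02 percentage points for Cplx1. The causes were not tested. RLE scaling changed no call. Depth limits Vamp1 and Sv2b most, whose counts per library were 185 to 341 and 227 to 322.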
